A study of Rattus norvegicus with 12 samples.

Results

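Macrophages and other leukocytes are carried along when fibroblasts are prepared from heart tissue, and 10 genes that mark them were followed here in cultures of primary rat atrial fibroblasts. The genes were Cd68, Csf1r, Adgre1, Cd163, Mrc1, Lyz2, Tyrobp, Fcer1g, Cd14 and Ptprc. They were found by their symbol among the 22850 features of the read count and FPKM tables, and all 10 had a row. A total of 12 libraries were described, 4 from each of 3 treatments, and every group carried angiotensin II (AngII), so no untreated cells enter any comparison. The AngII group received 1 μmol/L AngII alone for 48 h. In the AngII+HNG group, HNG, a synthetic humanin analogue with glycine in place of a serine, was added at 10 μmol/L 1 h before AngII. In the AngII+MOTS-c group, MOTS-c, a peptide encoded in mitochondrial DNA, was given at 5 μmol/L on the same schedule. The cells came from atria of rats 1 to 3 days old, were enriched by their adhesion to plastic without a sort, and were kept in 2% serum. The rats were of the Sprague-Dawley strain, and their sex is not given in the sources used here. The methods call the replicates biological without saying which animals or preparations they came from, so that p-values measure the spread between these libraries. In the library names, replicates 2 and 3 of every treatment carry 1 shared number with different suffixes, while AngII+MOTS-c replicate 1 carries another number than replicate 1 of the other groups, so the 4 libraries of a group may come from fewer than 4 preparations.

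Resident macrophages populate the heart before birth and are renewed there, under signals from the receptor encoded by Csf1r, which binds the growth factors CSF1 and IL34. They take up debris and matrix through surface receptors such as the mannose receptor (Mrc1) and the haemoglobin scavenger receptor (Cd163), and degrade the cargo in lysosomes whose membranes carry the glycoprotein CD68. Lyz2 encodes lysozyme, which cleaves bacterial cell walls. Tyrobp and Fcer1g encode adaptors that pass signals from activating receptors to the kinase SYK, and Cd14 encodes the co-receptor that hands lipopolysaccharide to TLR4. Ptprc encodes CD45, the phosphatase on the surface of nearly all nucleated blood cells, and Adgre1 encodes F4/80, an adhesion receptor used as a macrophage marker in rodents.

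The 4 members whose levels differed between AngII+HNG and AngII, given below, are shown by the 250 bases before their transcription start, since members that move together invite a look at shared promoter letters. The sequences are from RefSeq (build GRCr8) and run 5′ to 3′ towards the start, with the letters GAGGAA, or TTCCTC on the other strand, in capitals. These letters form the purine-rich core bound by PU.1, the myeloid transcription factor encoded by Spi1.
Lyz2 (chr7:54798012-54798261, minus strand): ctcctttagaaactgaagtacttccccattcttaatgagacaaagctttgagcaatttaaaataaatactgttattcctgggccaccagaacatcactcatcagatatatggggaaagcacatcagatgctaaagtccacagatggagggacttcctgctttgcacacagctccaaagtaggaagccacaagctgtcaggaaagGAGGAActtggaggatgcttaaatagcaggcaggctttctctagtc
Cd68 (chr10:54882442-54882691, minus strand): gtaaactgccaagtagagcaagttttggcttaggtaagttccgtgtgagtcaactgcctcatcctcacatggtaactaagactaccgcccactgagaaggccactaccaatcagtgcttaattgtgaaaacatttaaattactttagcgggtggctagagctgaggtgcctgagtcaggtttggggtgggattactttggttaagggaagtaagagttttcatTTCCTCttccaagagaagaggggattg
Mrc1 (chr17:82157475-82157724, plus strand): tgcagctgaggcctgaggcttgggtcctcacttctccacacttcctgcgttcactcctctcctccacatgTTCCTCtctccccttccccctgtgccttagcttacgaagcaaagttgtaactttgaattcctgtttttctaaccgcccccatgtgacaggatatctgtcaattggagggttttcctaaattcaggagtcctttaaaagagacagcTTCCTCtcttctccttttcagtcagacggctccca
Ptprc (chr13:52259747-52259996, minus strand): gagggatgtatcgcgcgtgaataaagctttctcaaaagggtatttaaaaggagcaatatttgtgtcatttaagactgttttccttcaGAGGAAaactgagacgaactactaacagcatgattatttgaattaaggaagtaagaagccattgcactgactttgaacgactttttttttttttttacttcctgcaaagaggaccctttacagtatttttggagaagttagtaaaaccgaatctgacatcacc

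The first capital letter lay 46 bases before the start in Lyz2, 27 in Cd68, 180 and 35 in Mrc1, and 163 in Ptprc. A promoter was found for 8 of the 10 members, and GAGGAA was present on either strand within 250 bases in 7 of these 8, against 23.3% of all 33469 promoters in the table. They were present in all 4 members printed here and also in Adgre1, Cd14 and Csf1r, which did not pass the test, and were missing in Cd163. The longer form GAGGAAGT, or ACTTCCTC on the other strand, was found in 0 of the 8 and in 2.04% of all promoters. Such matches describe letters and do not show binding.

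Libraries held 27960586 to 38322354 counts on genes, and 3 counts, the floor used here for detection, corresponded to 0.0787 to 0.106 CPM (counts divided by the TMM-scaled library size), a limit set by counting error alone. The members together took 0.0260% to 0.0473% of all counts, and Lyz2 alone took 35.6% to 45.0% of the members' counts. In keeping with the label, the fibroblast collagen genes Col1a1 and Col3a1 stood at 4234 and 4119 FPKM over all libraries (FPKM divides a count by gene length and library total). Cardiomyocyte transcripts were also plentiful, with Nppa at 2446 and Tnnt2 at 749 FPKM. Libraries numbered 4 had the highest level of 7 of the 9 members above the floor in AngII, 6 of 9 in AngII+HNG and 6 of 9 in AngII+MOTS-c. The differences of Lyz2, Cd68, Mrc1, Ptprc and Cd14 with HNG against AngII are therefore also given without them.

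On the per-length scale Lyz2 was the most abundant member in AngII libraries, at 81.5 ± 6.34 FPKM (SD, n = 4 here and below). The adaptor genes followed, Fcer1g at 21.7 ± 1.93 and Tyrobp at 18.7 ± 0.697 FPKM, then Cd14 at 16.5 ± 2.30, Cd68 at 16.3 ± 2.31 and Csf1r at 13.5 ± 1.75 FPKM. The ranges of neighbours overlapped from Fcer1g down to Csf1r, so that the order of neighbours among these 5 is not resolved by the replicates, while all Csf1r libraries lay below all those of Fcer1g and Tyrobp. Mrc1 stood at 5.57 ± 0.518, Ptprc at 3.12 ± 0.325 and Adgre1 at 1.00 ± 0.101 FPKM, each separated from the member above it. Cd163, at 0.0408 ± 0.0336 FPKM, was the lowest of the members, with 0 to 18 counts a library over all treatments. With HNG the order of the means changed only in that Cd68, at 26.6 ± 3.94 FPKM, came between Fcer1g at 26.8 ± 6.36 and Tyrobp at 23.5 ± 4.73 FPKM, whose ranges overlap. With MOTS-c, Cd68 at 18.3 ± 1.497 FPKM stood before Cd14 at 15.7 ± 2.20 FPKM, again with overlapping ranges.

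The question of the comparison with HNG was which transcripts the peptide alters in AngII-treated fibroblasts. Among the members, Lyz2, Cd68, Mrc1 and Ptprc rose with HNG, by 0.37 to 0.75 on the log2 scale, and none fell. These 4 of the 9 members tested passed an adjusted p of 0.05 in the quasi-likelihood test of edgeR, where 5.98% of the 14524 genes tested were called with 3.40% higher and 2.58% lower. The same 4 had no overlap between the groups in the higher direction, which held for 6.87% of all genes tested. An unadjusted p under 0.05 was found for 7 of the 9, all but Fcer1g and Csf1r, and for 20.3% of all genes. The median log2 fold change of the 9 members was 0.31, against 0.0043 over all genes tested. In unsorted cultures, the kind of cell these transcripts came from, the number of such cells and the RNA per cell cannot be told apart.

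**Figure D1:**
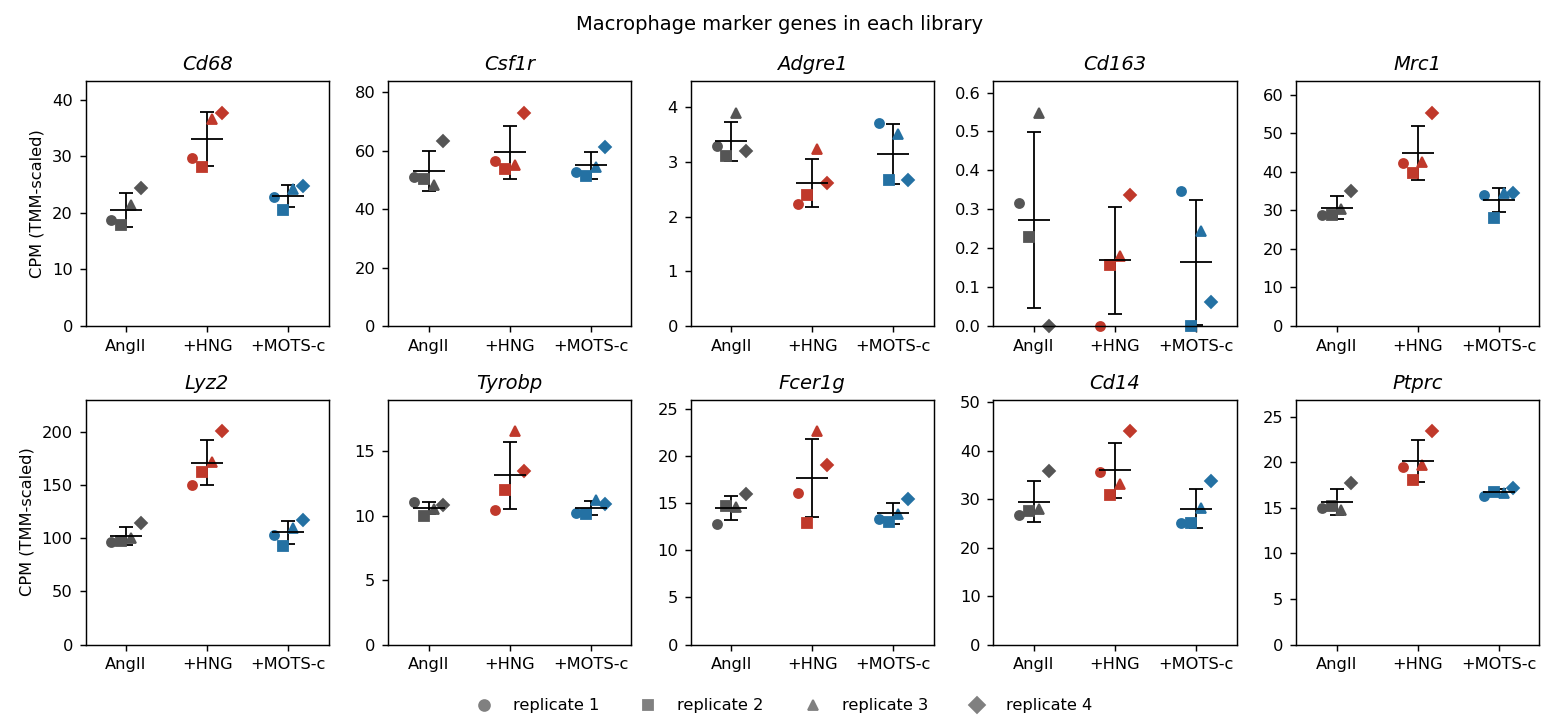
Level of each of the 10 macrophage marker genes in the 12 libraries, by treatment, in CPM scaled with TMM on axes that start at 0, with a symbol for each replicate number and a bar at the group mean. All 4 AngII+HNG libraries lie above all AngII libraries for Lyz2, Cd68, Mrc1 and Ptprc, as in Lyz2 with 150.4 to 201 against 96.6 to 115 CPM, while the groups overlap for the other 6.

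Lyz2 stood at 96.6, 97.8, 101 and 115 CPM in AngII replicates 1 to 4, and at 150.4, 162, 172 and 201 CPM in the AngII+HNG replicates. The lowest library with HNG was well above the highest without it. The log2 fold change was 0.75 (SE 0.080, 95% interval 0.58 to 0.92, adjusted p = 0.000262), the largest among the members. Cd68, the lysosomal membrane glycoprotein, was at 18.7, 17.8, 21.5 and 24.4 CPM in AngII and at 29.7, 28.2, 36.7 and 37.7 CPM in AngII+HNG. Both groups had their higher values in replicates 3 and 4, without an overlap between treatments. Its log2 fold change was 0.69 (SE 0.11, 95% interval 0.45 to 0.93, adjusted p = 0.00343).

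Mrc1, the endocytic receptor for mannose-bearing glycoproteins, was at 28.7, 28.7, 30.4 and 35 CPM in AngII and at 42.2, 39.7, 42.6 and 55.3 CPM in AngII+HNG. Replicate 4 was the highest in both groups, and the groups did not overlap. The log2 fold change was 0.55 (SE 0.098, 95% interval 0.34 to 0.77, adjusted p = 0.00568). Ptprc was at 15.0, 15.2, 14.8 and 17.7 CPM in AngII and at 19.5, 18.1, 19.7 and 23.4 CPM in AngII+HNG. The gap between the groups was narrow, since AngII replicate 4 lay just under the lowest library with HNG. Its log2 fold change was 0.37 (SE 0.087, 95% interval 0.18 to 0.56, adjusted p = 0.0257). The call on Ptprc was lost when AngII replicate 1, 2 or 3 or AngII+HNG replicate 4 was left out, with adjusted p = 0.0947, 0.0859, 0.0867 and 0.0681. It was also lost with replicates 2 and 3, which share a number in the library names, summed to 1 library (adjusted p = 0.0593). Without replicate 4 of both groups the log2 fold changes were 0.72 for Lyz2, 0.71 for Cd68, 0.51 for Mrc1 and 0.35 for Ptprc, with adjusted p = 0.000132, 0.00456, 0.00128 and 0.0223 in edgeR.

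The signalling adaptors did not pass the test. Tyrobp was at 11.1, 10.02, 10.5 and 10.8 CPM in AngII and at 10.4, 12.0, 16.6 and 13.5 CPM in AngII+HNG. The AngII libraries were within a narrow band, and the spread with HNG came from replicate 3 at the top and replicate 1 inside that band. The log2 difference was 0.31 (95% interval 0.055 to 0.57, adjusted p = 0.158). Without AngII+HNG replicate 1 it was 0.41 with adjusted p = 0.0465. Fcer1g was at 12.8, 14.7, 14.6 and 15.9 CPM in AngII and at 16.1, 12.9, 22.6 and 19.1 CPM in AngII+HNG. Replicate 2 with HNG was at the level of the lowest AngII library. The log2 difference was 0.29 (95% interval -0.012 to 0.59, adjusted p = 0.270).

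Among the receptors, Cd14 was at 26.6, 27.5, 27.9 and 35.9 CPM in AngII and at 35.6, 30.9, 33.2 and 43.9 CPM in AngII+HNG. Only AngII replicate 4 reached into the range with HNG. The log2 difference was 0.29 (95% interval 0.045 to 0.53, adjusted p = 0.168), and without AngII replicate 4 it was 0.40 with adjusted p = 0.0433. Without replicate 4 of both groups it was 0.28 with adjusted p = 0.0395. Csf1r was at 50.9, 50.2, 48.2 and 63.2 CPM in AngII and at 56.3, 53.7, 54.9 and 72.9 CPM in AngII+HNG. In each group replicate 4 stood above the other 3, which lay close together. The log2 difference was 0.17 (95% interval -0.054 to 0.39, adjusted p = 0.400).

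Adgre1 was the member with a negative difference. Its levels were 3.29, 3.11, 3.89 and 3.20 CPM in AngII and 2.24, 2.39, 3.23 and 2.61 CPM in AngII+HNG. Replicate 3 was the highest in both groups, and with HNG it lay above 2 AngII libraries. The log2 difference was -0.36 (95% interval -0.67 to -0.045, adjusted p = 0.185). Cd163 was counted 12, 8, 18 and 0 times in AngII, 0, 6, 6 and 12 times in AngII+HNG, and 12, 0, 7 and 2 times in AngII+MOTS-c. It was removed by the filter on low counts in every comparison, and at these counts no difference was detectable.

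MOTS-c was compared with AngII alone in the same way, with the same 4 AngII libraries. None of the 9 members passed the test, where 1 gene or 0.00690% of the 14488 tested was called by edgeR. The number with an unadjusted p under 0.05 was 0 among the members, against 5.05% of all genes tested, and no member's groups were apart, against 3.41% of all genes. Log2 differences ran from -0.11 for Adgre1 to 0.17 for Cd68, 6 of them positive and 3 negative, with a median of 0.046 against -0.00076 over all genes, and adjusted p was 0.924 to 0.999. DESeq2 and limma also called 0 members. Lyz2 was at 103, 92.7, 109.7 and 118 CPM with MOTS-c, which spans the AngII range on both sides. Cd68 was at 22.7, 20.5, 24.2 and 24.8 CPM, with an interval of the log2 difference from -0.039 to 0.37. Mrc1 was at 34.0, 28.1, 34.6 and 34.4 CPM, of which replicate 2 was the low value. Ptprc was at 16.3, 16.7, 16.7 and 17.2 CPM, all inside the AngII range.

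The remaining members were equally close to AngII. Tyrobp was at 10.2 to 11.2, Fcer1g at 13.0 to 15.4 and Cd14 at 25.1 to 33.7 CPM with MOTS-c. Csf1r was at 51.2 to 61.3 and Adgre1 at 2.67 to 3.71 CPM. These ranges all overlapped those of AngII.

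**Figure D2:**
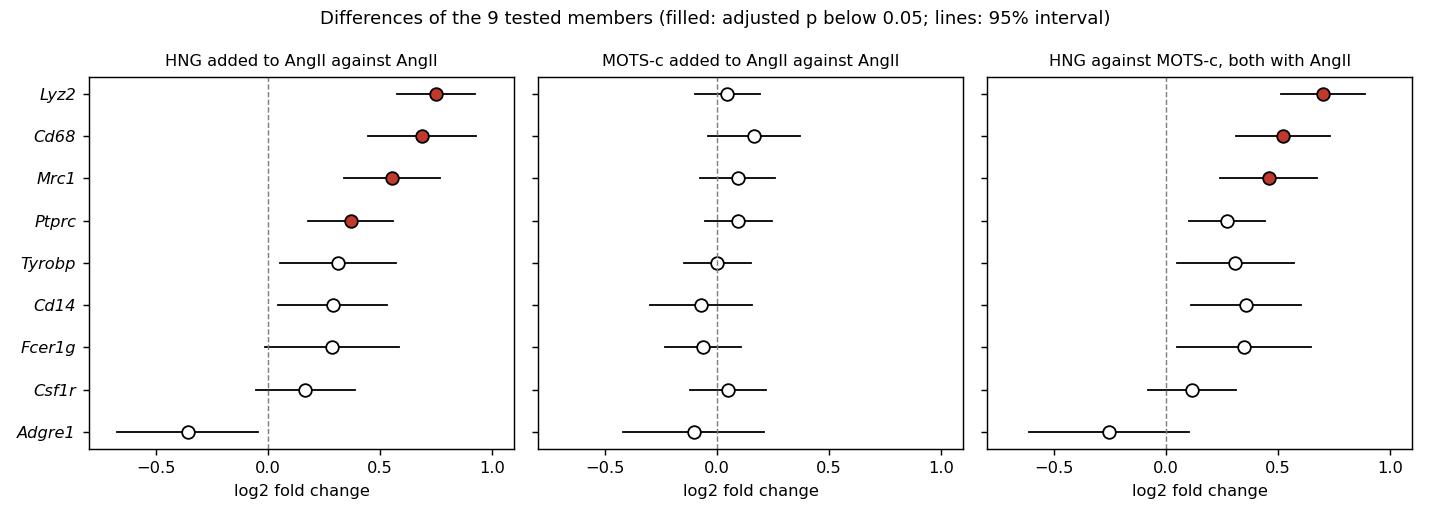
Log2 fold changes of the 9 members tested by edgeR in the 3 comparisons, as points with lines for the 95% interval, filled where the adjusted p was below 0.05. With HNG against AngII, Lyz2 at 0.75, Cd68 at 0.69, Mrc1 at 0.55 and Ptprc at 0.37 are filled, with MOTS-c against AngII no point is filled, and with HNG against MOTS-c Lyz2 at 0.70, Cd68 at 0.52 and Mrc1 at 0.46 are filled.

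The peptides were set against each other directly, since a call with HNG and none with MOTS-c does not show that they differ. They differ in sequence as well as in dose, 10 against 5 μmol/L, so a difference between them belongs to the treatments as given. Lyz2, Cd68 and Mrc1 were higher with HNG, at log2 differences of 0.70 (SE 0.087, adjusted p = 0.000833), 0.52 (SE 0.097, adjusted p = 0.00907) and 0.46 (SE 0.10, adjusted p = 0.0209). These were 3 of the 9 members tested, where 4.41% of 14448 genes were called with 2.64% higher and 1.77% lower. Ptprc had no overlap either, which made 4 members apart in that direction against 6.37% of all genes, but its log2 difference of 0.27 did not pass (adjusted p = 0.0749). The differences of Cd14, Fcer1g and Tyrobp were 0.36, 0.35 and 0.31, with adjusted p = 0.101, 0.189 and 0.180, and those of Csf1r and Adgre1 were 0.12 and -0.26, with adjusted p = 0.526 and 0.420. An unadjusted p under 0.05 was found for 7 of the 9, against 19.3% of all genes. The call on Mrc1 was lost without AngII+MOTS-c replicate 1 or 2, with adjusted p = 0.0565 and 0.0732, and in limma on log2(FPKM + 1) and log2(FPKM + 0.1), with adjusted p = 0.0576 and 0.0503. In DESeq2, Ptprc and Cd14 were called as well, with adjusted p = 0.0302 and 0.0266.

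Ratios to Csf1r, the member with the smallest positive difference, were taken within each library as a description, with no test and no other denominator. The signs of the shifts with HNG therefore follow largely from this choice of denominator and are not a result. The ratio of Lyz2 to Csf1r, on the log2 scale, was higher with HNG than with AngII by 0.58, that of Cd68 by 0.52, that of Mrc1 by 0.38 and that of Ptprc by 0.20. Tyrobp, Cd14 and Fcer1g differed from Csf1r by 0.13, 0.12 and 0.098 in the same sense, and Adgre1 by -0.54, each with overlapping groups. Lyz2 made up 41.5% to 45.0% of all member counts with HNG, against 35.7% to 36.9% with AngII and 35.6% to 37.0% with MOTS-c. With MOTS-c the mean log2 ratios to Csf1r differed from those with AngII by -0.17 to 0.12.

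Across the 12 libraries, which share their treatments and replicate numbers, log2 CPM of Lyz2 and Mrc1 had a Pearson r of 0.958, that of Cd68 and Mrc1 0.951, that of Cd68 and Lyz2 0.949 and that of Mrc1 and Ptprc 0.945. These were the highest pairs, and other pairs were lower, down to 0.506 for Tyrobp with Cd14 and 0.378 for Csf1r with Tyrobp. Adgre1 was negative with every other member, with r from -0.579 with Ptprc to -0.0712 with Tyrobp. These are descriptions and carry no test.

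A wider list of 42 macrophage and myeloid genes was read beside the members. With HNG, 10 of the 38 tested rose and none fell, where 3.40% of all genes tested were called higher and 2.58% lower. Of the differences 34 were positive and 4 negative, and the median was 0.35. They ran from -0.43 for C1qc to 0.71 for Fcgr3a, neither of which passed. Itgb2, the common chain of the leukocyte integrins, went from 27.8 ± 2.35 to 39.4 ± 5.52 CPM (log2 fold change 0.51, adjusted p = 0.00543). Lcp1, the leukocyte actin-bundling protein, went from 47.9 ± 4.52 to 66.1 ± 8.56 CPM (0.47, adjusted p = 0.00741). Folr2, a folate receptor of resident tissue macrophages, went from 6.58 ± 0.835 to 9.77 ± 0.946 CPM (0.58, adjusted p = 0.00853), and the chemokine gene Pf4 from 5.76 ± 1.19 to 8.78 ± 1.14 CPM (0.62, adjusted p = 0.0243). Spi1, which encodes PU.1, stood at 6.98 ± 0.707 and 9.81 ± 1.88 CPM (0.49, adjusted p = 0.0463), and the lipid-sensing receptor gene Trem2, a partner of the Tyrobp product, at 9.18 ± 0.892 and 12.7 ± 2.38 CPM (0.48, adjusted p = 0.0438). Cd53, Hcls1, Msr1 and Fermt3 were the other 4 that rose, and they lost the call in 5, 4, 9 and 5 of 20 alternative settings, each without AngII replicate 1 or 2 among others. The complement genes C1qa and C1qb differed by 0.10 and -0.046 with adjusted p = 0.843 and 0.916.

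The number of genes called in this list rested on single libraries. It was 3 without AngII replicate 1 or 2, 5 without AngII replicate 3 and 4 without AngII+HNG replicate 4. Itgb2, Lcp1 and Folr2 were called under each of the 20 alternative settings, while Spi1 and Trem2 each lost the call in 10. Among these were the omission of any AngII library, of AngII+HNG replicate 3 or 4, or of replicate 4 of both groups. Pf4 lost the call in 5, the omission of AngII replicate 1, 2 or 4, of AngII+HNG replicate 4, or of replicate 4 of both groups. With MOTS-c none of the 37 tested was called by edgeR, DESeq2 or limma. An unadjusted p under 0.05 in edgeR was found for 4, against 5.05% of all genes tested. Of the differences 17 were positive and 20 negative, and the median was -0.013. Between HNG and MOTS-c 10 of 37 were higher with HNG, where 2.64% of all genes tested were called higher and 1.77% lower. Among them were Aif1 and Laptm5, which lost the call in 5 and 4 of 20 settings, beside 7 genes that also rose against AngII. Fcgr2b, which encodes the inhibitory IgG receptor, was lower (log2 difference -0.79, adjusted p = 0.0476). Fcgr2b lost that call in 12 of 20 settings, among them the omission of AngII+HNG replicate 1, 2 or 3 or of any AngII+MOTS-c library. The 11 calls became 5 without AngII+MOTS-c replicate 1, 3 without replicate 2 and 6 without replicate 3. Cx3cr1, the fractalkine receptor gene, which the study itself picked from these libraries for qPCR, fell with HNG from 1.63 ± 0.265 to 0.667 ± 0.172 CPM (log2 fold change -1.27, SE 0.22, adjusted p = 0.00519). It was called under all 20 settings, with log2 fold changes of -1.43 to -0.55, and stood at 1.16 ± 0.215 CPM with MOTS-c.

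**Figure D3:**
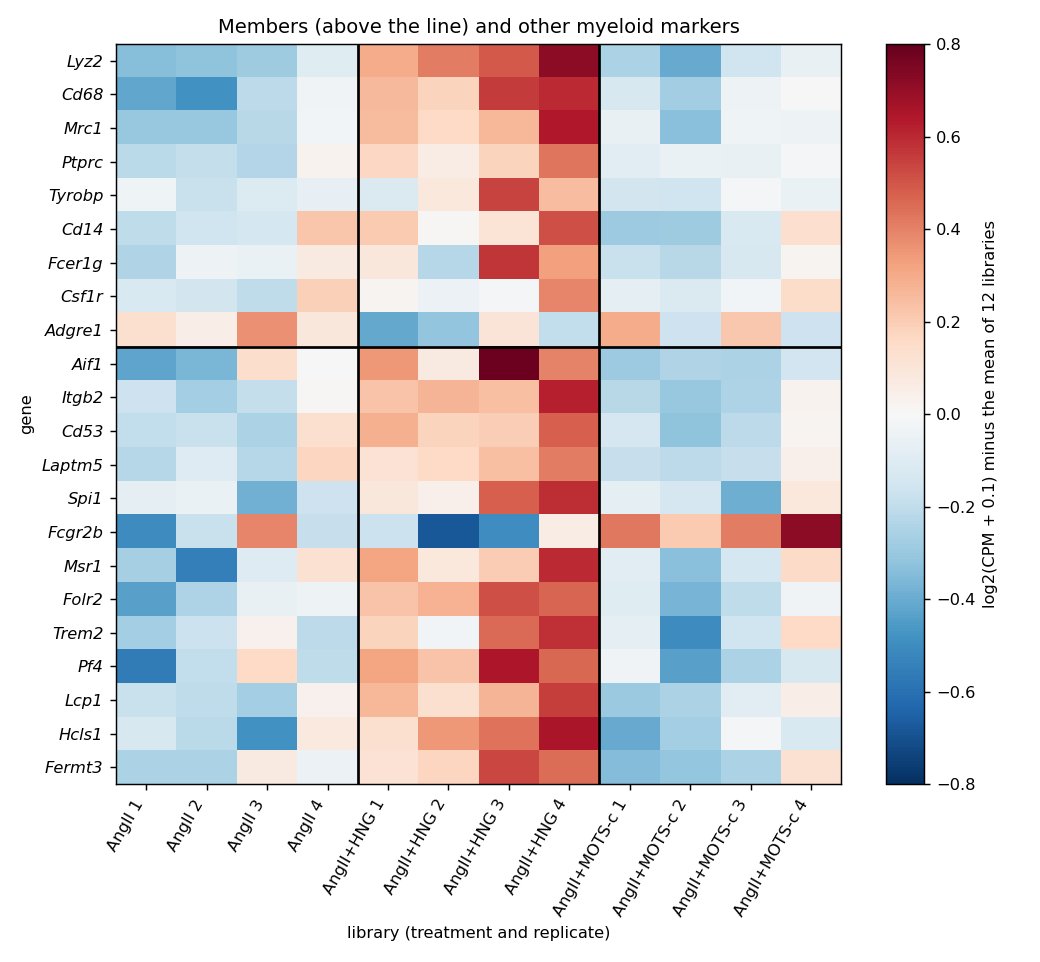
Level of the 9 members tested (above the line) and of other myeloid genes that passed the test in a comparison (below it) in each of the 12 libraries, coloured by log2(CPM + 0.1) minus that gene's mean over all libraries. The 4 AngII+HNG columns are the highest for Lyz2, Cd68 and Mrc1, where the members' mean centred log2 CPM was 0.034 to 0.41, against -0.20 to 0.044 in AngII and -0.23 to -0.0044 in AngII+MOTS-c.

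Genes that act with the members were taken from short lists of pathways, to be read against 3.40% of all genes tested called higher with HNG. Csf1, the ligand of the Csf1r product, stood at 199.7 CPM in AngII and 208 CPM in AngII+HNG (log2 difference 0.063, adjusted p = 0.442), and Il34, the other ligand, at 5.17 and 4.45 CPM (-0.21, adjusted p = 0.308). Of the 7 genes of this growth factor axis 4 were tested and 1 rose, the GM-CSF receptor gene Csf2ra, from 8.90 to 11.7 CPM (0.40, adjusted p = 0.0399), a call lost in 8 of 20 settings, among them the omission of AngII replicate 1, 2 or 3 or of AngII+HNG replicate 2, 3 or 4. Of 12 partners and kinases of the adaptors, 10 were tested, all 10 had a positive difference with a median of 0.32, and 3 rose. Among these were Vav1, an exchange factor downstream of SYK (0.51, adjusted p = 0.0150), and Syk itself (0.35, adjusted p = 0.0473), which lost the call in 12 of 20 settings, among them the omission of any AngII library or of AngII+HNG replicate 1, 2 or 4. Vav1 lost it in 3, the omission of AngII replicate 1, of AngII replicate 3 and of replicate 4 of both groups.

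All 9 genes of the CD14 and TLR4 complex were tested, and 2 rose with HNG, where 3.40% of all genes tested were called higher. Lbp, which encodes the plasma protein that carries lipopolysaccharide to CD14, was at 12.2 ± 1.89 CPM in AngII, 22.6 ± 2.60 in AngII+HNG and 15.1 CPM in AngII+MOTS-c (HNG against AngII 0.89, adjusted p = 0.000645). Tlr4 went from 9.50 to 13.7 CPM (0.54, adjusted p = 0.00495). Both are expressed in cells other than macrophages as well. The median of these 9 genes was 0.096, from -0.60 to 0.89. Of 8 MHC class II genes only 2 passed the filter and none was called by edgeR, with 1 at an unadjusted p under 0.05. Of 12 macrophage cytokine and activation genes 5 passed the filter and none was called, with 2 at an unadjusted p under 0.05, against 20.3% of all genes tested. Of their differences 2 were positive and 3 negative, with a median of -0.092. With MOTS-c edgeR called none of the genes in these lists, and 1, of the CD14 and TLR4 complex, had an unadjusted p under 0.05, against 5.05% of all genes tested.

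Markers of other cell types were counted in the same libraries. With HNG against AngII, 3.40% of all genes tested were called higher and 2.58% lower, and 20.3% had an unadjusted p under 0.05. T, NK and B cell markers were at or near 0, with 6 of 10 T and NK genes, Cd3e and Cd3d among them, and 2 of 5 B cell genes at 0 in every library, and the summed level was at most 1.23 CPM for the T and NK list and 0.257 CPM for the B cell list. Of 9 neutrophil and mast cell markers, S100a9, Mpo, Elane, Cpa3 and Ms4a2 were at 0 in every library and S100a8, Camp and Hdc stayed under 1 CPM. The ninth, Kit, which is not limited to mast cells, was at 15.0 ± 1.03 CPM in AngII, 17.3 ± 1.36 in AngII+HNG and 14.6 ± 0.380 in AngII+MOTS-c (HNG against AngII 0.22, adjusted p = 0.122, and HNG against MOTS-c 0.25, adjusted p = 0.0752, without overlap). Of 6 dendritic cell markers, Xcr1 was at 0 and Flt3, Ccr7 and Clec9a stayed under 1 CPM. Itgax, an integrin chain that macrophages carry too, was at 8.80 ± 1.51 CPM in AngII, 11.5 ± 1.53 in AngII+HNG and 9.0 ± 1.37 in AngII+MOTS-c (HNG against AngII 0.39, adjusted p = 0.0997), and Zbtb46 was at 14.2 ± 1.06, 13.5 ± 0.859 and 13.9 ± 0.749 CPM (-0.075, adjusted p = 0.651). Of 4 Schwann cell markers 3 were tested and none was called, with 0 at an unadjusted p under 0.05. Of 10 endothelial markers 4 were called higher with HNG (Kdr, Tek, Tie1 and Egfl7), 8 differences were positive and 2 negative, those of Erg at -0.30 and Emcn at -0.19 (adjusted p = 0.191 and 0.699), and the summed level with HNG was 99.8 to 109.9 CPM, against 79.4 to 89.2 in AngII and 83.0 to 89.3 in AngII+MOTS-c. Kdr and Egfl7 lost the call in 7 and 8 of 20 settings, Tie1 in 1 and Tek in 0. Of 11 lysosomal genes, which fibroblasts express too, 9 rose with HNG, with a median of 0.26, and Lamp1, Psap, Npc2 and Ctsz lost the call in 8, 6, 6 and 1 of 20 settings. Of 12 fibroblast markers 2 rose, Tcf21 and Thy1, and Thy1 lost the call in 5 settings, among them the omission of AngII replicate 1, 3 or 4 or of AngII+HNG replicate 2. Of 10 cardiomyocyte markers 1 rose, Tnni3, which lost the call in 4 settings, among them the omission of AngII replicate 1, 2 or 3. Of 7 smooth muscle and pericyte markers 3 fell, Acta2, Myh11 and Notch3. The members' summed level was 264 to 320.7 CPM in AngII, 360.5 to 469.4 in AngII+HNG and 260.04 to 318 in AngII+MOTS-c. The part of these other genes in the members' differences was not tested.

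**Figure D4:**
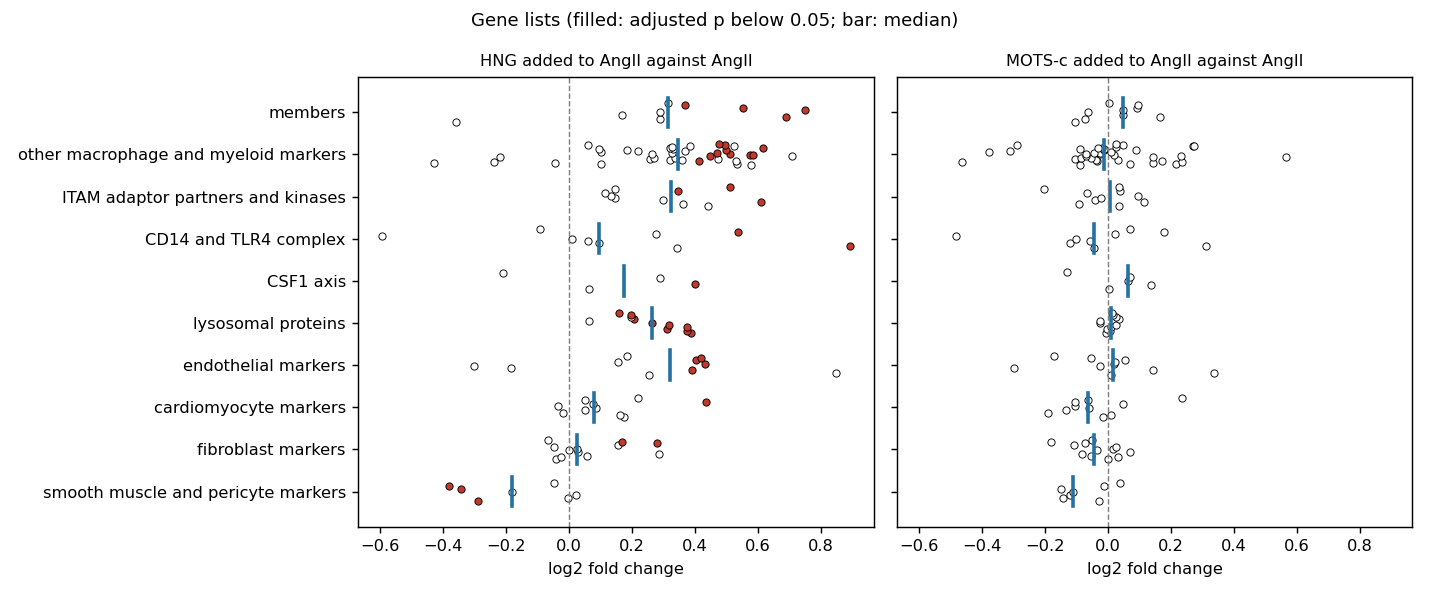
Log2 fold changes of the tested members and of the tested genes of other lists, for HNG against AngII and MOTS-c against AngII. Each gene is 1 point, filled where the adjusted p in edgeR was below 0.05, with a bar at the list's median. The lists of MHC class II, cytokine, T and NK, B, neutrophil and mast, dendritic and Schwann cell genes are not drawn. With HNG against AngII the bars of the members and of the other myeloid genes stand at 0.31 and 0.35 and that of the fibroblast markers at 0.026, while with MOTS-c against AngII no point is filled.

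The genes whose pattern was most like the members' mean were sought among the 13077 genes that averaged 1 CPM or more, by Pearson's r over the 12 libraries. They were Lgmn (r = 0.970), a lysosomal endopeptidase gene, Mxd4 (0.965), Pnpla7 (0.962), the globin gene Cygb (0.959), Gpnmb (0.956), which encodes a transmembrane glycoprotein of endosomes and lysosomes, the proteoglycan gene Podn (0.954), the cathepsin gene Ctss (0.954) and the lectin gene Cd302 (0.953). In the comparison of HNG with AngII, 4 of these 8 rose, where 3.40% of all genes tested were called higher. Gpnmb went from 492 to 755 CPM (log2 fold change 0.62, adjusted p = 0.00148) and Lgmn from 149 to 191 CPM (0.36, adjusted p = 0.00292). Cygb and Ctss rose by 0.43 and 0.37, with adjusted p = 0.0104 and 0.0127 in edgeR, and of these 4 only Ctss lost the call in any of the 20 settings, without AngII replicate 1 (adjusted p = 0.0568). They were chosen for their likeness over these same libraries, so their changes are not independent of it.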

How the data were processed

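RNA of primary rat atrial fibroblasts, 4 replicates for each of AngII, AngII+HNG and AngII+MOTS-c, was sequenced as mRNA libraries, and groups were taken from the sample titles. The authors deposited read counts per gene without normalization, and FPKM values of the same libraries. Their processing notes name HISAT2, Picard 1.41 and SAMtools 0.1.18, while the genome build, the annotation, the counting tool and the use of strand are not given in the sources used here. No column of other samples was present.

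Tests used edgeR 4.0.16 under R 4.3.3. The counts were filtered with filterByExpr, scaled with TMM and fitted with glmQLFit and glmQLFTest on the 8 libraries of each comparison over the whole table, with Benjamini-Hochberg adjustment over all genes tested and a threshold of 0.05. All 320 features without the identifier of an annotated gene were kept. Intervals are 95% intervals from the moderated test, CPM are TMM-scaled, and log2 CPM used a prior count of 2. No test was run on a list as a whole. Alternatives were DESeq2 1.42.0, limma 3.58.1 on log2(FPKM + 1) and log2(FPKM + 0.1), other scaling, filters and fits, replicate blocks and the omission of libraries. The scripts were tested on simulated counts.

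The members and all gene lists were chosen with earlier results of these data known. Named beside the members are listed genes past the threshold in any comparison, the listed genes with the highest FPKM, the 8 genes most like the members' mean, and Csf1, Il34, Spi1, Trem2 and Cx3cr1. A few listed genes that passed the threshold are counted but not reported here. C1qa, C1qb, C1qc, Fcgr3a, Erg, Emcn and genes at or near 0 were named after their values were seen.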

Additional observations from a re-analysis of the deposited data

Results flagged for a closer look

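In 4 of the 30 sets of 4 libraries examined (each member in each treatment), 1 library stood far from the rest, where chance gives about 1 in 20 for a single set. The sets are not independent, since all members were counted in the same 12 libraries. Csf1r in AngII+HNG was at 72.9 CPM in replicate 4, with the next library at 56.3. Cd14 in AngII was at 35.9 CPM in replicate 4, with the next at 27.9, and Ptprc in AngII at 17.7 CPM in replicate 4, with the next at 15.2. Mrc1 in AngII+MOTS-c was at 28.1 CPM in replicate 2, with the next at 34.0.

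A total of 3 members responded differently to HNG and to MOTS-c by the direct test in edgeR. The log2 fold change with HNG exceeded that with MOTS-c by 0.70 for Lyz2 (adjusted p = 0.000833), by 0.52 for Cd68 (adjusted p = 0.00907) and by 0.46 for Mrc1 (adjusted p = 0.0209). In each gene all 4 AngII+HNG libraries lay above all 4 AngII+MOTS-c libraries.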

How the results depend on the processing

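The fold changes of the 9 tested members, the calls on other named genes and the numbers of calls were recomputed under 20 alternatives. The ratios, correlations, list medians and promoter counts were not. The calls on Lyz2, Cd68 and Mrc1 with HNG against AngII held in 20 of 20, with the highest adjusted p at 0.00273, 0.0214 and 0.0304, and that on Ptprc was lost in 6. No member was called with MOTS-c in any alternative. The number of members called with HNG against AngII was 3 to 5 when libraries were left out. Between HNG and MOTS-c it was 5 with DESeq2 and 2 to 4 when libraries were left out. For the other myeloid genes, limma on log2(FPKM + 1) called 6 against AngII and 7 against MOTS-c, the sum of replicates 2 and 3 as a single library called 7 against MOTS-c, and leaving out libraries gave 3 to 11 in both comparisons. The causes were not tested.

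Replicate numbers are shared by the treatments but did not pair the libraries by the rule that every correlation of same-numbered deviations exceed 0.1. They were -0.0276 to 0.119 between AngII+HNG and AngII, 0.0202 to 0.134 between AngII+MOTS-c and AngII, and -0.00957, 0.112, 0.102 and 0.245 between AngII+HNG and AngII+MOTS-c, where 3 of 4 exceeded it. The replicate block gave 6 members called against AngII, adding Cd14 and Csf1r (adjusted p = 0.00844 and 0.0443), and 5 members and 17 other myeloid genes called between HNG and MOTS-c, adding Ptprc and Cd14 (adjusted p = 0.0423 and 0.00334). Blocking on library-name numbers also added Cd14 and Csf1r against AngII (adjusted p = 0.00670 and 0.0329) and Cd14 against MOTS-c (adjusted p = 0.0495). The share of all genes called under either block is not given here, so these counts are not read as a result about the members. Calls were also lost, that on Spi1 against AngII with the replicate block and that on Aif1 against MOTS-c with the other block.

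Near 0, differences of MOTS-c from AngII changed sign when libraries were left out, over ranges of -0.026 to 0.025 for Tyrobp, -0.17 to 0.037 for Cd14, -0.0082 to 0.14 for Csf1r and -0.0088 to 0.11 for Lyz2. Tyrobp was also at -0.016 with replicates 2 and 3 summed and at -0.0012 without replicate 4 of both groups. At this depth the counts of Cd163, 0 to 18 a library, leave its differences unresolved.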
